A study of Mus musculus with 8 samples.

Results

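Genes of striated and smooth muscle were followed in mouse embryos that lacked Sox11 and in wild type embryos, in RNA of the caudal part of the urogenital ridge. They were 36 genes chosen by name: 15 of skeletal muscle, 12 of cardiac muscle, 5 of smooth muscle and 4 myogenic factors. All 36 were measured, each by 1 probe set, among 19356 genes. Sox11-/- embryos were represented by 4 arrays (KO1 to KO4) and wild type embryos by 4 arrays (WT1 to WT4), which the labels call independent biological replicates. All 8 RNA samples came from untreated embryos at E10.75, on a mixed genetic background. The labels state neither how the Sox11 allele was made nor if single or pooled embryos gave a replicate. A litter shared by replicates would not be seen.

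Skeletal muscle of the trunk forms from the myotome of the somites, where the factors Myf5, Myod1, Myog and Myf6 commit cells to muscle and switch on the genes of the sarcomere. In the sarcomere, myosin heavy and light chains pull on actin filaments, and the troponin complex lets them do so when calcium is released through ryanodine receptors. Smooth muscle uses other actin and myosin isoforms, lacks troponin and forms around vessels, gut and urinary tract from mesenchyme. Several genes cross these borders in the embryo: Des, Ttn, Tnnt2, Actc1 and Acta2 are each used by more than 1 kind of muscle.

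Values are log2 signals of the Affymetrix arrays after RMA, so folds are powers of 2. Any 2 arrays correlated at 0.987 to 0.995 (Pearson's r over genes, whose values are not independent). Sox11, the targeted gene, read 8.93 to 9.24 on the knockout arrays and 11.72 to 11.86 on the wild type arrays, so each array matched its label. Signal of Eif2s3y and Kdm5d, which are Y-linked, was seen on KO3, KO4 and WT1. Their mean was 9.87 to 10.10 on these 3 arrays and 5.37 to 5.54 on the other 5, which shows how these 2 probe sets read without their transcript. In limma's test across all genes, 70 genes (0.362%) were higher and 209 (1.08%) were lower in knockout at an adjusted p under 0.05. After median centring of the arrays the split was 82 higher and 137 lower.

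The muscle programme read low in these ridges. Averaged over the 8 arrays, 9 of the 36 members lay below the 25th percentile of all genes (6.22), 21 lay between it and the median (7.55), and 6 lay above the median. The 6 were Des, Acta2, Actc1, Mybpc1, Tagln and Actg2. All 4 myogenic factors lay below the 25th percentile, with 5.76 to 6.33 on the knockout arrays and 5.86 to 6.21 on the wild type arrays. Probe sets differ in brightness, so these ranks say that most members were dim, where arrays understate differences, and not how much RNA each gene made. Checked this way, the muscle label rested on Des, Acta2, Actc1, Mybpc1, Tagln and Actg2, while the defining factors of skeletal muscle read below the 25th percentile.

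**Figure D1:**
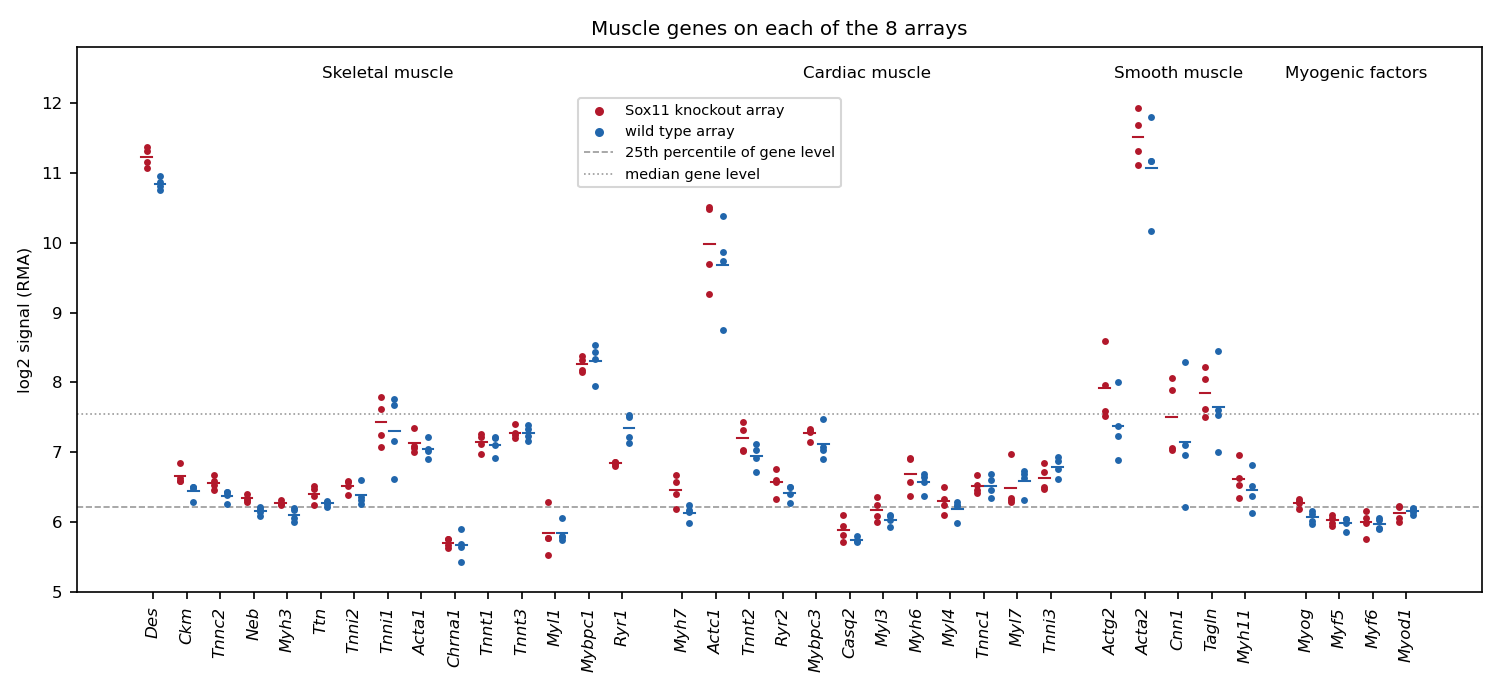
Log2 signal (RMA) of the 36 muscle genes, 1 point per array, with short bars at the genotype means, Sox11 knockout left of wild type for each gene, and genes ordered by change within each kind of muscle. Dashed and dotted lines mark the 25th percentile (6.22) and the median (7.55) of the level of all genes, and 6 members have means above the median.

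Across the 36 members, Ryr1 was the only one past limma's threshold, and it was lower in knockout. That is 1 of 36 lower and 0 of 36 higher, against 1.08% and 0.362% of all genes. At an unadjusted p under 0.05, 8 of 36 members (22.2%) were higher, against 7.29% of all genes, and 1 (2.78%) was lower, against 9.38%. The 8 were Des, Myh7, Myog, Neb, Ckm, Tnnc2, Myh3 and Tnnt2. The change had a median of 0.14 over the members, as knockout minus wild type in log2, and was above 0 for 29 of 36. Over all genes the median was -0.00050 and 49.9% lay above 0. Those comparisons shift with level: below the 25th percentile all genes had a median of 0.046, close to the 0.043 of the 9 members there. Between the 25th percentile and the median the values were 0.13 for 21 members and 0.045 for all genes, and above the median 0.34 for 6 members and -0.040 for all genes.

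Counted array by array, all 4 knockout arrays lay above all 4 wild type arrays for 6 members (16.7%), against 4.04% of all genes. The 6 were Des, Ckm, Tnnc2, Neb, Myh3 and Myog, and each but Des had a level below the median of all genes. All knockout arrays lay below all wild type arrays for Ryr1 alone (2.78%), against 6.47% of all genes. These shares shift with level too. Below the 25th percentile 2 of 9 members parted higher and 0 lower, against 4.92% and 0.889% of all genes there. Between it and the median 3 of 21 parted higher and 1 lower, against 5.99% and 4.55%. Above the median 1 of 6 parted higher and 0 lower, against 2.62% and 10.2%. For the other 29 members the genotypes overlapped. One array stood out: KO1 gave the highest of the 8 values for 18 of 36 members, whereas it gave the highest value for 13.1% of all genes. WT3 gave the lowest value for 10 members (27.8%), against 11.2% of all genes. Without KO1 the median change of the members was 0.074, and with KO1 and WT3 both left out, a choice made from these values, it was 0.068.

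**Figure D2:**
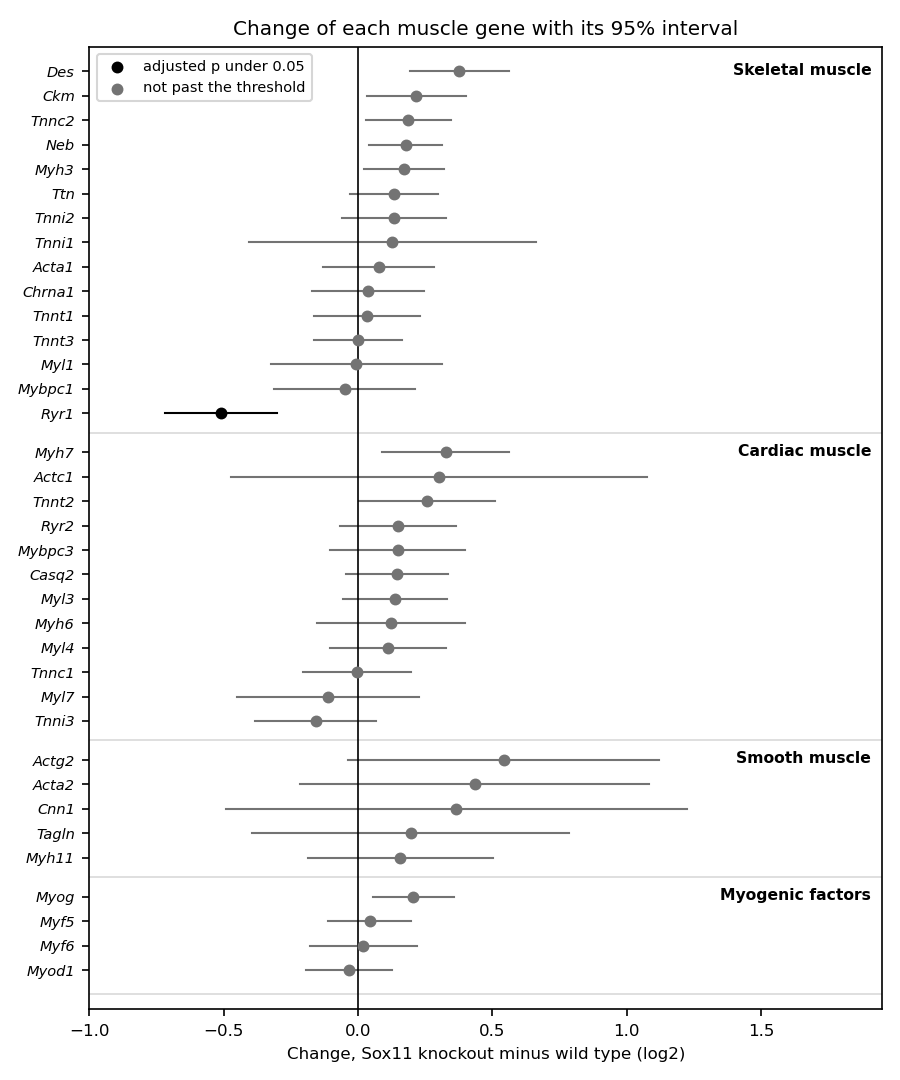
Change of each muscle gene (Sox11 knockout minus wild type, log2) with its 95% interval from limma, grouped by kind of muscle. Ryr1 (black) passed an adjusted p under 0.05, and 29 of the 36 points lie to the right of 0.

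Among skeletal muscle genes, Des, Ckm, Tnnc2, Neb and Myh3 had every knockout array above every wild type array without passing the test over all genes, and Ryr1 fell. The 15 genes had a median change of 0.13, with 12 above 0. In the subset of 12 used mainly by skeletal muscle, without Des, Ttn and Tnni1, the median was 0.057. Des encodes desmin, the intermediate filament that ties myofibrils together, and it is made in all 3 kinds of muscle. It read 11.37, 11.31, 11.15 and 11.06 on the knockout arrays, against 10.96, 10.81, 10.87 and 10.76 on the wild type arrays. The lowest knockout array thus lay just above the highest wild type array. Des averaged 11.22 ± 0.14 in knockout and 10.85 ± 0.09 in wild type (SD, n = 4 each), a change of 0.38 (SE 0.083, 95% interval 0.19 to 0.56) or 1.30-fold. Its limma adjusted p of 0.0600 missed the threshold. It passed after median centring (limma adjusted p = 0.0470), after a further quantile normalization (0.0452), with trended and robust moderation (0.0227), and where genes below the 25th percentile (0.0456) or the median (0.0337) of level were left out. It missed without moderation (limma adjusted p = 0.134), with the replicate number as a block (0.0735), with Y-linked signal as a covariate (0.0809), with array weights (0.0701) and with any 1 array left out (0.0720 to 0.158).

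Ryr1 encodes the calcium release channel of the skeletal muscle sarcoplasmic reticulum. It read 6.81, 6.87, 6.83 and 6.86 on the knockout arrays, against 7.54, 7.51, 7.14 and 7.22 on the wild type arrays. The knockout arrays were close together, and WT1 and WT2 stood above WT3 and WT4. Ryr1 averaged 6.84 ± 0.03 in knockout and 7.35 ± 0.20 in wild type (SD, n = 4 each). It fell by 0.51 on the log2 scale (SE 0.094, 95% interval -0.72 to -0.30), which is 1.42-fold lower (limma adjusted p = 0.0297). The call was lost without WT1, without WT2 and without each of the 4 knockout arrays (limma adjusted p from 0.0602 to 0.0956), without moderation (0.115) and with the replicate number as a block (0.0620). The size of the fall stayed between 0.45 and 0.58 under all these settings. In the same arrays 10 of 11 neuron genes were below 0, with a median of -0.27, against 9706 of all 19356 genes. The mean signal of the neuron list was 7.74 to 8.05 in knockout and 7.96 to 8.31 in wild type. Of 11 erythroid genes 10 were below 0 too, with a median of -0.22. The part of neurons or of blood cells in the Ryr1 result was not tested.

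RNA of Ckm, Neb, Myh3 and Tnnc2 gave smaller differences. Ckm, the muscle creatine kinase that recycles ATP, read 6.85, 6.58, 6.63 and 6.59 on the knockout arrays, against 6.50, 6.28, 6.51 and 6.49 on the wild type arrays. Neb, nebulin, the ruler of the thin filament, read 6.399, 6.32, 6.29 and 6.35 in knockout, against 6.19, 6.15, 6.09 and 6.23 in wild type. For these 2 genes the lowest knockout array lay close above the highest wild type array. Myh3, the embryonic myosin heavy chain, read 6.25, 6.26, 6.33 and 6.28 in knockout, against 6.05, 6.20, 6.003 and 6.17 in wild type. Tnnc2, fast troponin C, read 6.54, 6.58, 6.46 and 6.68 in knockout, against 6.43, 6.39, 6.26 and 6.43 in wild type. Again the groups only just parted. The changes were 0.22 for Ckm (SE 0.083), 0.19 for Tnnc2 (SE 0.072), 0.18 for Neb (SE 0.062) and 0.17 for Myh3 (SE 0.067), with limma adjusted p-values of 0.227, 0.229, 0.193 and 0.239.

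The other 9 skeletal genes overlapped between genotypes. The giant spring protein gene Ttn was at 0.13, fast troponin I (Tnni2) at 0.13 and slow troponin I (Tnni1) at 0.13. Skeletal actin (Acta1) was at 0.076, the acetylcholine receptor subunit gene Chrna1 at 0.037, slow troponin T (Tnnt1) at 0.034 and fast troponin T (Tnnt3) at 0.00067. The fast light chain gene Myl1 was at -0.0059 and Mybpc1, slow myosin-binding protein C, at -0.050. Their limma adjusted p-values ran from 0.392 for Ttn to 0.997 for Tnnt3. Tnni1 varied most among them, from 7.07 to 7.79 in knockout and from 6.62 to 7.76 in wild type, so its 95% interval ran from -0.41 to 0.66. Mybpc1 read 8.15 to 8.39 in knockout and 7.95 to 8.53 in wild type, with a 95% interval of -0.31 to 0.21.

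Of the myogenic factors 0 of 4 passed, against 0.362% of all genes higher and 1.08% lower. The genotypes parted for Myog alone, which is 25%, against 4.92% parted higher of all genes below the 25th percentile. Myog, the factor that drives myoblasts to differentiate, read 6.28, 6.19, 6.30 and 6.33 on the knockout arrays, against 6.16, 6.12, 5.97 and 6.02 on the wild type arrays. The groups did not overlap, with KO2 just above WT1. Myog was at 0.21 (SE 0.068, 95% interval 0.056 to 0.36) without passing (limma adjusted p = 0.170). Myf5 and Myod1, which commit cells to the muscle lineage, were at 0.043 (SE 0.070) and -0.033 (SE 0.072), and Myf6 was at 0.019 (SE 0.090). Their limma adjusted p-values were 0.787, 0.845 and 0.934, and their 95% intervals lay within -0.19 and 0.22. The median of the 4 was 0.031, below the 0.046 of all genes at that level, and after a further quantile normalization it was -0.018.

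Among cardiac genes, Myh7 and Tnnt2 leaned higher in knockout without passing. Of the 12 genes 0 parted the genotypes, against 4.04% parted higher and 6.47% parted lower of all genes. The 12 genes had a median change of 0.14, with 9 above 0. Myh7, the slow and fetal ventricular myosin heavy chain, read 6.68, 6.41, 6.19 and 6.58 on the knockout arrays, against 6.18, 6.14, 6.24 and 5.99 on the wild type arrays. KO3 lay below WT3, while the other 3 knockout arrays lay above all wild type arrays. Myh7 was at 0.33 (SE 0.11, limma adjusted p = 0.166). Tnnt2, the cardiac troponin T also made in embryonic skeletal muscle, read 7.43, 7.02, 7.04 and 7.32 in knockout, against 7.03, 6.92, 7.12 and 6.72 in wild type. It was at 0.26 (SE 0.11, limma adjusted p = 0.293), with KO1 and KO4 above every wild type array.

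Apart from Actc1, which is described with the smooth muscle genes, the other cardiac genes lay between -0.16 and 0.15. The cardiac ryanodine receptor gene Ryr2 was at 0.15, in contrast to Ryr1, and Mybpc3 (cardiac myosin-binding protein C) and Casq2 (cardiac calsequestrin) were at 0.15 and 0.14. The ventricular and slow light chain gene Myl3 was at 0.14, Myh6, the atrial myosin heavy chain, at 0.12, and the atrial and embryonic light chain gene Myl4 at 0.11. Troponin C of slow and cardiac muscle (Tnnc1) was at -0.0029, the atrial light chain gene Myl7 at -0.11 and cardiac troponin I (Tnni3) at -0.16. Myl7 read 6.98 on KO1, against 6.30 to 6.34 on the other knockout arrays and 6.32 to 6.73 on the wild type arrays. Limma adjusted p-values of these 9 genes ran from 0.419 to 0.990. Of the 15 heart regulators and chamber genes outside the members, 4 had a level below the 25th percentile of all genes, 9 lay between it and the median and 2 lay above the median, with Isl1 and Gata6, regulators also active outside the heart, in the last group. The mean signal of this list was 6.96 to 7.23 in knockout and 6.82 to 7.11 in wild type.

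**Figure D3:**
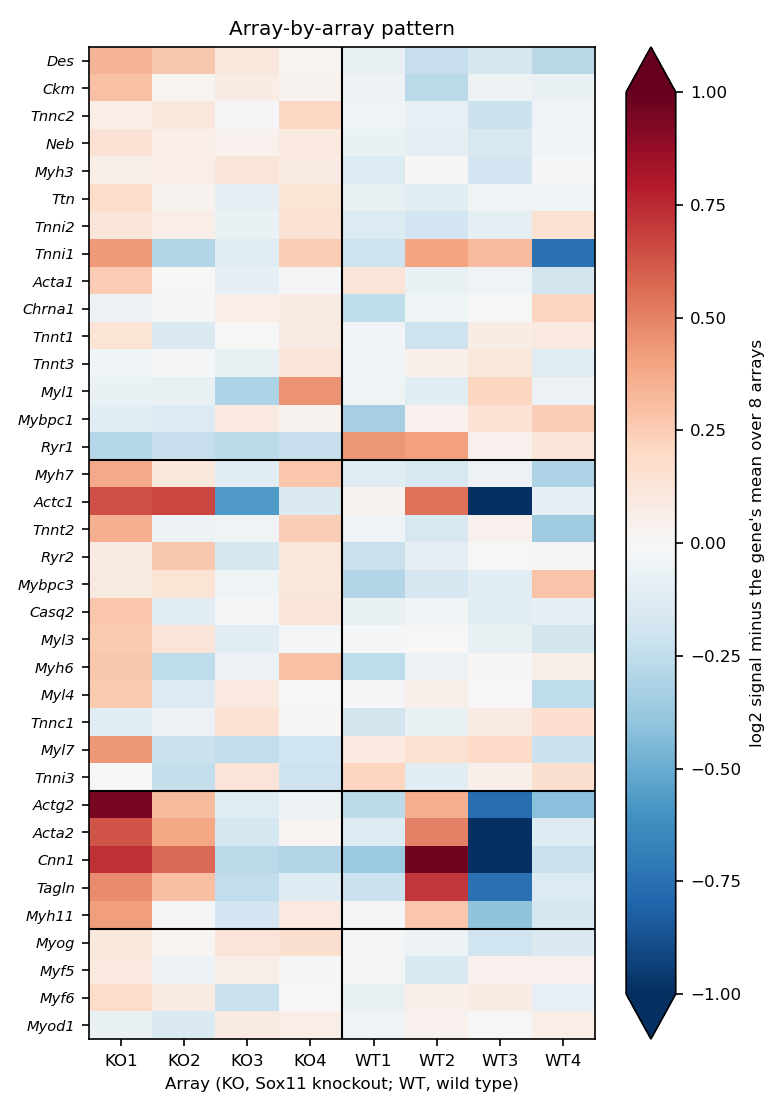
Log2 signal of each muscle gene on each array minus the gene's mean over the 8 arrays, Sox11 knockout arrays left of wild type arrays, colours cut off at 1 in either direction. KO1 holds the highest value of 18 of the 36 genes and WT3 the lowest of 10, and the 5 smooth muscle genes and Actc1 share a pattern that crosses the genotypes.

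Of the 4 kinds of muscle genes, the smooth muscle genes had the largest median difference. Of the 5 genes 0 passed, against 0.362% of all genes higher and 1.08% lower. Their median change was 0.37 and all 5 were above 0. Acta2, smooth muscle alpha-actin, read 11.92, 11.68, 11.11 and 11.32 on the knockout arrays, against 11.16, 11.79, 10.17 and 11.16 on the wild type arrays. Actg2, enteric smooth muscle gamma-actin, read 8.59, 7.96, 7.52 and 7.59 in knockout, against 7.38, 8.005, 6.89 and 7.23 in wild type. In both genes WT2 lay among the high knockout arrays and WT3 lay lowest. Cnn1, calponin, which binds actin and damps contraction, read 8.06, 7.89, 7.06 and 7.03 in knockout, against 6.96, 8.30, 6.22 and 7.11 in wild type. Tagln, transgelin (SM22), an early marker of the lineage, read 8.22, 8.04, 7.503 and 7.62 in knockout, against 7.53, 8.45, 6.999 and 7.61 in wild type. Myh11, the smooth muscle myosin heavy chain and a marker of its mature form, read 6.97, 6.53, 6.35 and 6.64 in knockout, against 6.52, 6.82, 6.14 and 6.38 in wild type. WT2 was the highest of the 8 arrays for Cnn1 and Tagln and the second highest for Myh11, and WT3 was the lowest for all 5.

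Changes were 0.54 for Actg2 (95% interval -0.038 to 1.12), 0.43 for Acta2 (-0.22 to 1.08), 0.37 for Cnn1 (-0.49 to 1.23), 0.20 for Tagln (-0.39 to 0.79) and 0.16 for Myh11 (-0.19 to 0.50). Their limma adjusted p-values were 0.328, 0.481, 0.665, 0.742 and 0.640, and 0 of 5 passed an unadjusted p under 0.05. Without WT3 Tagln was at -0.020. All 5 intervals include 0 and those of Actg2, Acta2 and Cnn1 reach above 1. The SD within a genotype was 0.48 for Actg2, 0.54 for Acta2, 0.72 for Cnn1, 0.49 for Tagln and 0.27 for Myh11, where the median gene had 0.12. Among all genes these SDs stood at percentiles 99.3, 99.5, 99.8, 99.3 and 94.7. The median of 0.37 was 0.18 without KO1, 0.24 without KO2, 0.058 without WT3 and 0.67 without WT2. With KO1 and WT3 both left out, a pair chosen after its high and low values were seen, it was -0.065.

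Actc1, cardiac alpha-actin, which embryonic skeletal and some smooth muscle also make, followed the smooth muscle genes in these arrays. It read 10.48, 10.51, 9.27 and 9.69 in knockout, against 9.87, 10.38, 8.75 and 9.74 in wild type. As in the smooth muscle genes, KO1, KO2 and WT2 were high and WT3 was lowest. Actc1 was at 0.30 (SE 0.35, limma adjusted p = 0.697) and, without WT3, at -0.011. Its SD within a genotype was 0.65, and it ranged 3.38-fold over the 8 arrays. The range was 3.36-fold for Acta2, 3.27-fold for Actg2, 4.22-fold for Cnn1, 2.73-fold for Tagln and 1.77-fold for Myh11. Acta1, whose protein is closely related, ranged 1.35-fold. Actin genes are alike in coding sequence and a probe set of one can read the RNA of another, so single actin values are uncertain.

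**Figure D4:**
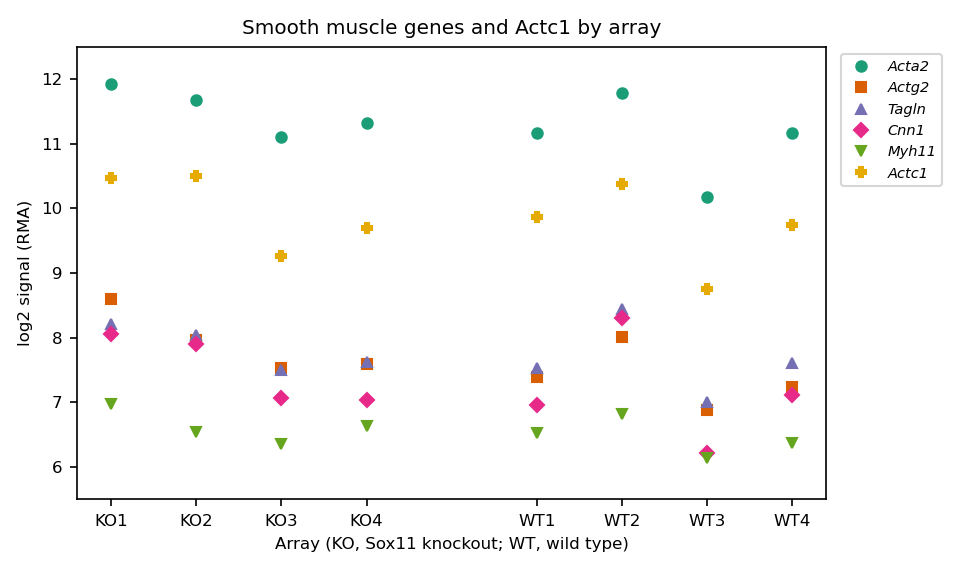
Log2 signal (RMA) of the 5 smooth muscle genes and Actc1 on each array, Sox11 knockout arrays left of wild type arrays, 1 marker per gene. KO1, KO2 and WT2 are high and WT3 is lowest for all 6 genes except that KO4 lies above KO2 for Myh11.

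Markers of vessel walls and endothelium were set beside this pattern. The mean signal of 9 pericyte and mural genes was 8.86 on KO1, 8.71 on KO2, 8.76 on KO3 and 8.71 on KO4, against 8.62 on WT1, 8.83 on WT2, 8.68 on WT3 and 8.64 on WT4. For 12 endothelial genes it was 9.73, 9.55, 9.50 and 9.50 in knockout, against 9.47, 9.67, 9.57 and 9.38 in wild type. KO1 and WT2 were thus the highest arrays of both lists as well, whereas WT3 was not the lowest of either. KO2, high for the smooth muscle genes, was the lowest knockout array of the mural list. KO1 (7.23) and WT2 (7.11) were also the highest arrays of the heart regulators and chamber genes, so this trait was not particular to vessel genes. The median change was -0.0043 for the mural list, with 4 of 9 above 0, and 0.040 for the endothelial list, with 9 of 12 above 0. Cspg4 was at 0.43 (limma adjusted p = 0.0745), with all knockout arrays above all wild type arrays. Notch3 was at -0.23 (0.184), with all below. Each is 11.1% of the mural list, against 4.04% parted higher and 6.47% parted lower of all genes. The part of these cells in the smooth muscle result was not tested. In tissue with many cell types, fewer cells of a kind and less RNA per cell cannot be told apart.

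Promoter sequences are shown for Acta2, Actc1 and Acta1, actin genes of which the first 2 varied together and the third did not, and for Des and Ryr1, the members with the lowest p-values. They are the 250 bases before the gene start in RefSeq's annotation of GRCm38.p6, on the gene's strand. Acta2 is at chr19:34255374-34255623 (minus strand), Actc1 at chr2:114052876-114053125 (minus), Acta1 at chr8:123894776-123895025 (minus), Des at chr1:75360042-75360291 (plus) and Ryr1 at chr7:29125152-29125401 (minus). Capitals mark exact matches to the CArG box, the E-box CAGCTG, the MEF2 motif and TATAAA on either strand. The CArG box (the serum response factor motif) was searched as CCWWWWWWGG, with W for A or T. Stretches with a single base off this pattern were neither marked nor counted. Examples are ccctatatgg in Acta2 and Actc1, ccttgtttgg in Acta2, ccttacatgg and ccaagaatgg in Actc1, and ccatatacgg and ccttctttgg in Acta1. The list may not be complete, and an unmarked promoter may still hold a looser CArG box.
Acta2: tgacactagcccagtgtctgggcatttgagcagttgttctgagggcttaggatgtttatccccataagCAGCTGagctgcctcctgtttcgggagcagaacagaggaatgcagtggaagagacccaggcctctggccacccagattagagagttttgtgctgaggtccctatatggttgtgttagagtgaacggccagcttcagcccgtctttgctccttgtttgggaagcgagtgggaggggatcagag
Actc1: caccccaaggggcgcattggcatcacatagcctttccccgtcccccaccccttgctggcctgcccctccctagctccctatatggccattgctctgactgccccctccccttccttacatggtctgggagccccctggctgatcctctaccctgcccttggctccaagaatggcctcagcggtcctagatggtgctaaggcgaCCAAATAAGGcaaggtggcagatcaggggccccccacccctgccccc
Acta1: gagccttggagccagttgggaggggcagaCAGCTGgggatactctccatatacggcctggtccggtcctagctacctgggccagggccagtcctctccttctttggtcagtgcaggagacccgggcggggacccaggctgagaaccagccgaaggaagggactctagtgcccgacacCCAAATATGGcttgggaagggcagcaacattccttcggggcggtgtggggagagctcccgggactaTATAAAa
Des: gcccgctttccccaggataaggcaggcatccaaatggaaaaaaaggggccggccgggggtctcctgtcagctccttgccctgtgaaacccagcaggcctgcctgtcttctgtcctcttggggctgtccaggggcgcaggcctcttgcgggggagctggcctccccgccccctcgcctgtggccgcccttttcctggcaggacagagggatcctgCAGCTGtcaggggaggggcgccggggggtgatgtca
Ryr1: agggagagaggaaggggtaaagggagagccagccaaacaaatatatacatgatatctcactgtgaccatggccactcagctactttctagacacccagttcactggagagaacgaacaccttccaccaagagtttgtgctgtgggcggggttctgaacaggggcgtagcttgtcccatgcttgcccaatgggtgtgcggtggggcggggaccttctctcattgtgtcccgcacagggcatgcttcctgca
Actc1 and Acta1 each hold an exact CArG box, 47 to 38 and 73 to 64 bases before the start. Acta2, Acta1 and Des each hold the E-box CAGCTG, 182 to 177, 221 to 216 and 36 to 31 bases before the start. Acta1 also holds TATAAA 7 to 2 bases before it, and Actc1 holds TATAAA after the start, at bases 34 to 39. Ryr1 has no match to these 4 motifs in its window. Distances are counted from the start in RefSeq's annotation, and the start used in these embryos was not tested.

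Promoters were matched for 28 of the 36 genes, with 31 starts in all, and searched over 250 bases before to 50 after each start on both strands. The 8 without a match were Actg2, Tagln, Myh11, Tnnt3, Tnni2, Neb, Myod1 and Myf6. Of the smooth muscle genes only Acta2 and Cnn1 were thus searched. An exact CArG box stood in 4 of 31 (12.9%), against 1.63% of 32851 promoters of the same length. Its genes were Acta1, Actc1, Myl3 and Myl7. The E-box CAGCTG stood in 11 of 31 (35.5%, against 16.3%) and the general E-box CANNTG, which includes it, in 28 (90.3%, against 72.3%). The MEF2 motif stood in 3 (9.68%, against 3.19%), in Casq2, Mybpc3 and Ttn, and TATAAA in 7 (22.6%, against 13.6%). Of the 4 genes with an exact CArG box, Actc1 was at 0.30, Myl3 at 0.14, Acta1 at 0.076 and Myl7 at -0.11. These matches describe letters and not binding.

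In the 5 further lists of muscle and heart genes limma called 0 genes, against 0.362% of all genes higher and 1.08% lower. With shares this low, 0 is no result about the lists. Regulators of muscle progenitors had a median change of 0.11, with 13 of 17 above 0. Eya1, a transcriptional cofactor also expressed in kidney mesenchyme, was at -0.28 (limma adjusted p = 0.0609), and Lbx1, a factor of migrating muscle precursors, at 0.24 (0.138). Further striated sarcomere genes had a median of 0.094, with 21 of 31 above 0. Actn3, the actinin of fast fibres, was at -0.51 (limma adjusted p = 0.0633), and Tpm2, beta-tropomyosin, at -0.26 (0.114). For Actn3 all knockout arrays (8.46 to 8.98) lay below all wild type arrays (9.19 to 9.45). Next by p, Myoz1 and Myh7b went the other way, at 0.34 and 0.25 (limma adjusted p = 0.130 and 0.154). All knockout arrays lay above all wild type arrays for 3 of the 31 (9.68%, against 4.04% of all genes), these genes among them. They lay below for 2 (6.45%, against 6.47%). Genes of excitation and the neuromuscular junction had a median of 0.13, with 15 of 20 above 0 and 5 below. The lowest p was that of triadin (Trdn), which couples to the ryanodine receptor, at 0.23 (limma adjusted p = 0.172). Trdn has 19 probe sets and was read from the brightest. Cacnb1, at rank 3 by p, went the other way, at -0.22 (limma adjusted p = 0.204).

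Further smooth muscle genes, Des among them, had a median of 0.060, with 13 of 18 above 0. Pgm5, a protein of muscle adhesion sites, was at 0.43 (limma adjusted p = 0.119), and Mylk, the kinase that starts smooth muscle contraction, at 0.25 (0.222). Tpm2, also in this list, was at -0.26 (limma adjusted p = 0.114). All knockout arrays lay below all wild type arrays for 2 of the 18 (11.1%, against 6.47% of all genes), Tpm2 among them. They lay above for 1 (5.56%, against 4.04%), which was Des. Regulators and chamber genes of the heart had a median of 0.093, with 10 of 15 above 0, and the pacemaker channel gene Hcn4 was at -0.27 (limma adjusted p = 0.246). At an unadjusted p under 0.05, higher genes were 6 of the 17 progenitor regulators (35.3%), 9 of the 31 sarcomere genes (29.0%), 3 of the 20 excitation genes (15%), 4 of the 18 smooth muscle genes (22.2%) and 0 of the 15 heart genes, against 7.29% of all genes. Lower genes were 1, 2, 1, 1 and 1 of the same lists (5.88%, 6.45%, 5%, 5.56% and 6.67%), against 9.38% of all genes.

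Genes of other cells that the dissection could hold were measured beside the muscle genes. In the list of somite and sclerotome genes 0 rose, 2 fell (Meox2 by 0.50 and Uncx by 0.88) and 13 did not pass, with a median of -0.037. The 2 are 13.3% of the list, against 1.08% of all genes. Meox1, a homeobox factor of the somites, was at -0.94 with all knockout arrays below all wild type arrays (limma adjusted p = 0.0517). The mean signal of the somite list was 7.55 to 7.78 in knockout and 7.65 to 7.86 in wild type. Of 11 erythroid genes 10 were below 0 and 0 passed (5 were lower at an unadjusted p under 0.05, which is 45.5%, against 9.38% of all genes), with a median of -0.22, and their mean signal was 8.43 to 8.73 in knockout and 8.49 to 9.07 in wild type. Of 12 genes of the gonad primordium and coelomic epithelium 1 fell (Cbx2, by 0.48), which is 8.33%, and 11 did not pass, with a median of -0.033. Among neuron genes 1 of 11 fell (Dcx, by 0.93), which is 9.09%. Over all genes 1.08% fell. The part of these cells in the muscle values was not tested.

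**Figure D5:**
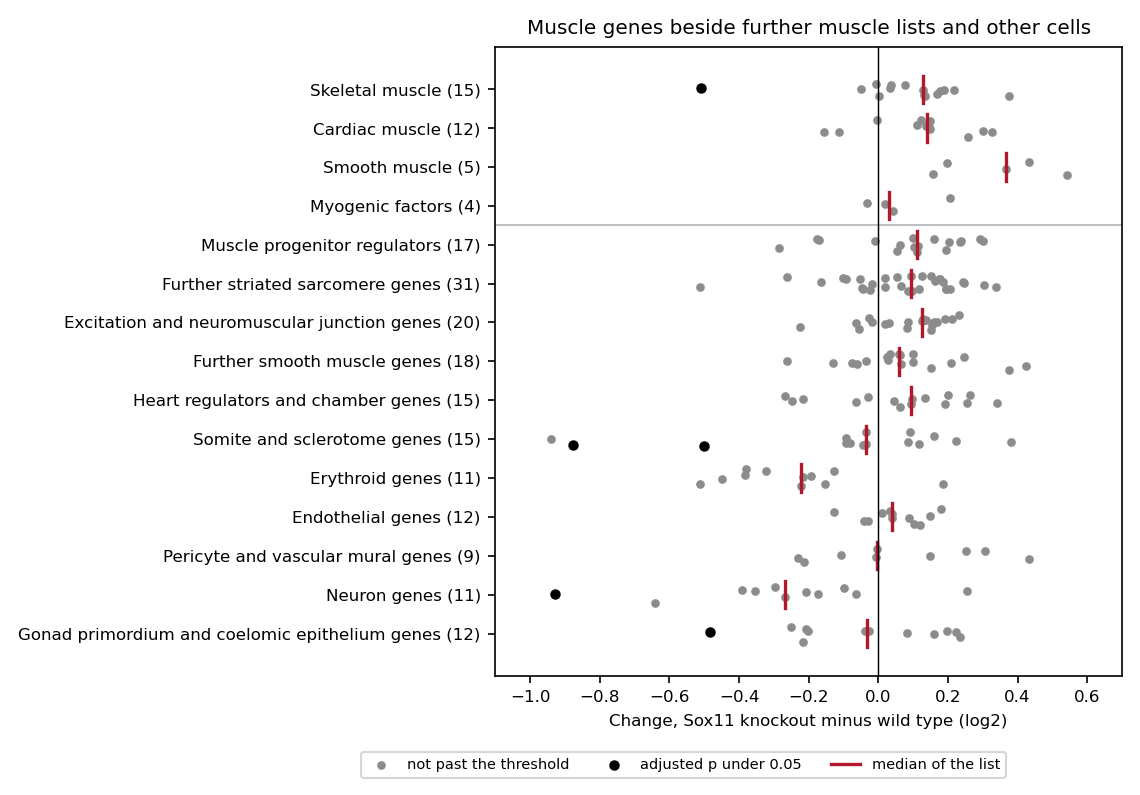
Change (Sox11 knockout minus wild type, log2) of each gene in the 4 kinds of muscle members (above the line), in further muscle lists and in lists of other cells, with the number of measured genes in brackets and red bars at the medians. Black points passed an adjusted p under 0.05, and Ryr1 is the only muscle gene among them.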

How the data were processed

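The authors hybridised RNA of 8 samples to Affymetrix arrays and deposited 1 log2 value per probe set. RNA was depleted of ribosomal RNA and amplified, per the labels' protocols. RMA and Partek are named, per the submitters' processing notes, without versions, settings or build. The log2 scale was read from the values (4.30 to 14.62). RMA quantile-normalizes arrays, so a shift of all genes could not be seen, and the number of arrays limits the precision.

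Probe sets with exactly 1 symbol in the platform annotation (21103 of 27478) were used, with symbols updated through RefSeq's table of GRCm38.p6, and each gene was read from its probe set of highest mean. The test of knockout against wild type used limma 3.58.1 (R 4.3.3; lmFit, then eBayes, with genotype as the only term, two-sided), adjusted by Benjamini-Hochberg over all 19356 genes. The pipeline was tested on simulated data. Figures used matplotlib 3.10.9.

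Members and lists were chosen with earlier results of these data known, so counts and medians are given beside those of all genes, without a list test. Of 176 genes in 11 further lists, 165 were measured. The text names all members, Sox11, Eif2s3y, Kdm5d and, of each list, up to 4 genes of lowest p. Isl1 and Gata6 were named after their values were seen. Alternatives covered normalization, level filters, probe sets, moderation, weights per array, a block for replicate numbers, Y-linked signal as a covariate, thresholds and each array left out.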

Additional observations from a re-analysis of the deposited data

Results flagged for a closer look

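An array was picked out where the gap between it and its nearest neighbour took up more of the spread of its genotype than Dixon's 95% critical value for 4 values allows. Of 158 groups of 4 arrays tested, over 79 genes, 9 were picked out, and chance picks about 1 in 20, which is 7.9. Among the members, Myl7 stood high on KO1 (6.98), Ckm stood high on KO1 (6.85), and Ckm stood low on WT2 (6.28). Among the other listed genes, Actn3 was at 8.46 on KO2, Ripply1, a somite boundary gene, at 6.92 on KO2, and Meox2, a somite factor, at 9.34 on KO3. In wild type, Msgn1, a factor of presomitic mesoderm, was at 6.04 on WT3, Rhag, a red cell membrane protein, at 7.38 on WT3, and Cbx2, a Polycomb protein, at 10.68 on WT1.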

How the results depend on the processing

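The sign of the change held under all alternatives for 21 of 36 members, and 2 (Ryr1 and Des) were called under at least 1. Against 1 member called (Ryr1, lower), 2 were called, 1 of them higher, after median centring, after a further quantile normalization, above the 25th percentile of level, with trended and robust moderation and at an adjusted p under 0.1. Above the median level, where Ryr1 was not tested, 1 was called higher and 0 lower. Without moderation, and with KO1 and WT3 both left out (chosen after seeing the data), 0 were called. At an unadjusted p under 0.05 there were 9, of them 8 higher.

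Replicate numbers did not pair the arrays (r of same-numbered deviations -0.17, 0.090, -0.040 and 0.062), and with the replicate block 0 members and 166 genes were called, 117 of them lower. Against 279 genes called, 55 were called without moderation (7 higher, 48 lower), 148 with Y-linked signal as a covariate (33 higher, 115 lower), 683 at an adjusted p under 0.1, 3227 at an unadjusted p under 0.05 and 58 without KO1 and WT3. Median centring gave 137 lower. Of the 165 measured genes of the further lists 4 were called, where 279 of all 19356 genes were. The number was 7 above the 25th percentile, 9 above the median level and 7 with trended and robust moderation. It was 1 without moderation and 7 with array weights. These counts shift with how strict the test is for all genes, so they are no result about the lists.

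After the further quantile normalization the median was -0.018 for myogenic factors and 0.081 for excitation genes, and 3 members parted higher. Above the median level, with fewer genes, medians were 0.34 for members, 0.30 for cardiac, -0.18 for further striated, -0.019 for excitation and -0.30 for somite genes, and 1 member parted higher and 0 lower. Signs turned for Myl1 (0.026) and Tnnc1 (0.029) after centring, for Myf5 (-0.0081) and Myf6 (-0.028) after quantile normalization, and for Tnnt3 (-0.015), Tnnc1 (0.027) and Myf6 (-0.0048) with array weights. With KO1 and WT3 both left out they turned for Acta2 (-0.0042), Cnn1 (-0.13), Myh11 (-0.065), Tagln (-0.14), Actc1 (-0.17), Myl1 (0.087), Tnnc1 (0.059), Mybpc1 (0.016) and Myf6 (-0.011). The cause was not tested.

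With each array left out in turn, 107 to 243 genes were called (17 to 55 higher, 88 to 192 lower), 0 to 1 members, 0 to 1 lower, and 2 to 5 listed genes. Changes that turned ran between -0.039 and 0.037 for Tnnt3, -0.037 and 0.097 for Myf6, -0.041 and 0.12 for Chrna1, -0.029 and 0.089 for Tnnt1, -0.16 and 0.099 for Myl1, -0.063 and 0.053 for Tnnc1, -0.011 and 0.54 for Actc1, -0.020 and 0.46 for Tagln, -0.10 and 0.28 for Tnni1, -0.17 and 0.023 for Mybpc1, and -0.068 and 0.010 for Myod1. No detection calls were used here, so how far each member's signal stood above background is unknown.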
